A study of Homo sapiens with 48 samples.

Results

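CGA, the gene of the glycoprotein hormone alpha subunit, was followed over 8 groups of HEK293 cells that differed in stimulus and in time. It was 1 of 60610 genes in the count table and 1 of 19626 genes with enough counts to be tested. CGA was selected on its measured difference between angiotensin II (AII) and control at 6 h, so its values in every comparison that uses those AII or control libraries are given as a description without a test. It is Ensembl gene ENSG00000135346 and spans 9609 bases of the minus strand at chr6:87085498-87095106 (GRCh38.p14).

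HEK293 is a human embryonic kidney cell line. The cells were 1 clone, obtained by limiting dilution after cotransfection with a puromycin resistance plasmid and selection in puromycin, that stably expressed AT1R, the type 1 receptor of AII, and they were grown with losartan, a blocker of this receptor. All 8 groups share this clone, its transgene and a change to serum-free medium before stimulation. The groups were control, 1 nM AII, 10 µg/L EGF (epidermal growth factor) and both together (AII + EGF), each for 6 h or 24 h, and poly(A) RNA was sequenced in 48 libraries, 6 per group by their labels, which is more than the number of replicates given in the study's legend. Nothing states whether the libraries of a group came from separate cultures, so p-values measure the spread between these libraries, which may be technical.

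The alpha subunit is a small secreted protein that pairs with 1 of several beta subunits to form luteinising hormone, follicle-stimulating hormone, thyrotropin or chorionic gonadotropin, and the beta subunit gives each hormone its specificity. The gene is normally active in gonadotrope and thyrotrope cells of the pituitary and in placental trophoblast. In the placenta its transcription depends on a tandem pair of cAMP response elements, short sites bound by CREB and ATF factors that are activated when protein kinase A or other kinases phosphorylate them. In gonadotropes the gene responds to gonadotropin-releasing hormone, whose receptor couples to Gq as AT1R does, and to mitogen-activated kinases, which EGF activates too.

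The RefSeq sequence of the 250 bases before the start of CGA, on the minus strand of GRCh38.p14 at chr6:87095107-87095356 and read 5′ to 3′ along the gene, is shown because it holds this pair of elements. Capitals mark the consensus element TGACGTCA, which is its own reverse complement, so that a search of 1 strand finds it on both.
CGA promoter: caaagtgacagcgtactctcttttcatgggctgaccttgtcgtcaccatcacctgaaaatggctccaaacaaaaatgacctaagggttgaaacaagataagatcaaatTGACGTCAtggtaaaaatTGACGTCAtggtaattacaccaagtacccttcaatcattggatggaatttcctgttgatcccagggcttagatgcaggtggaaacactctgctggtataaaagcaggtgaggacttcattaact
The elements lie at positions -142 to -135 and -124 to -117 from the start, within copies of a stretch of 18 bases that follow each other directly.
repeated stretch: aaatTGACGTCAtggtaa
A TATAAA box begins at position -29. Of 35116 RefSeq promoters searched over the same 250 bases, 578 (1.65%) held at least 1 copy of TGACGTCA and 19 (0.0541%) held 2 or more. A match is a description of letters, and binding was not measured.

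Of the 48 libraries, 38 were used (22.3 ± 3.02 M counts, SD; 17.8 to 29.96 M). The 8 others of near-identical content were left out: they form 4 pairs that carry different titles and, in 3 pairs, different group labels, and whose members are closer to each other than independent draws of reads would be (chi-square per degree of freedom 0.397 to 0.505, against 2.02 for the next closest of 1128 pairs). CGA had 53 and 53, 131 and 131, 98 and 100, and 28 and 28 counts in these pairs. A further 2 libraries were left out because their profiles went against their labels. On a scale of 3426 genes that puts the mean AII 6 h library at 0 and the mean AII + EGF 6 h library at 1, replicate 6 of the AII 6 h label was found at 0.842 and replicate 6 of the AII + EGF 6 h label at 0.0342, whereas the libraries kept lay between -0.0399 and 0.0216 and between 0.981 and 1.03. The genes and both ends of this scale came from the kept libraries, so that their own places near 0 and 1 follow in part from its making. Results are given for the 38 libraries, and for all 48 as labelled where these differ. Levels are CPM, that is counts scaled by the library total and its TMM factor, and these factors ranged from 0.848 to 1.12. Since whole cultures were measured, more cells with CGA mRNA and more CGA mRNA per cell cannot be told apart.

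At 6 h CGA was high under AII, close to control under EGF, and intermediate under both. The control libraries held 1.17, 1.23, 0.860 and 2.02 CPM (mean 1.32 ± 0.492, SD, n = 4), from 16 to 46 counts each. The AII libraries held 8.52, 8.91, 13.96, 14.1 and 13.2 CPM (11.7 ± 2.78, n = 5), from 162 to 329 counts. Every AII library lay above every control library, with a gap from 2.02 to 8.52 CPM. Under EGF, the level was 1.69, 2.09 and 1.76 CPM (1.85 ± 0.212, n = 3), inside or just above the range of the controls. Under AII + EGF, it was 5.03, 5.46, 6.79 and 7.59 CPM (6.22 ± 1.18, n = 4), from 102 to 147 counts. All AII + EGF libraries thus lay above all control and EGF libraries and below all AII libraries.

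**Figure D1:**
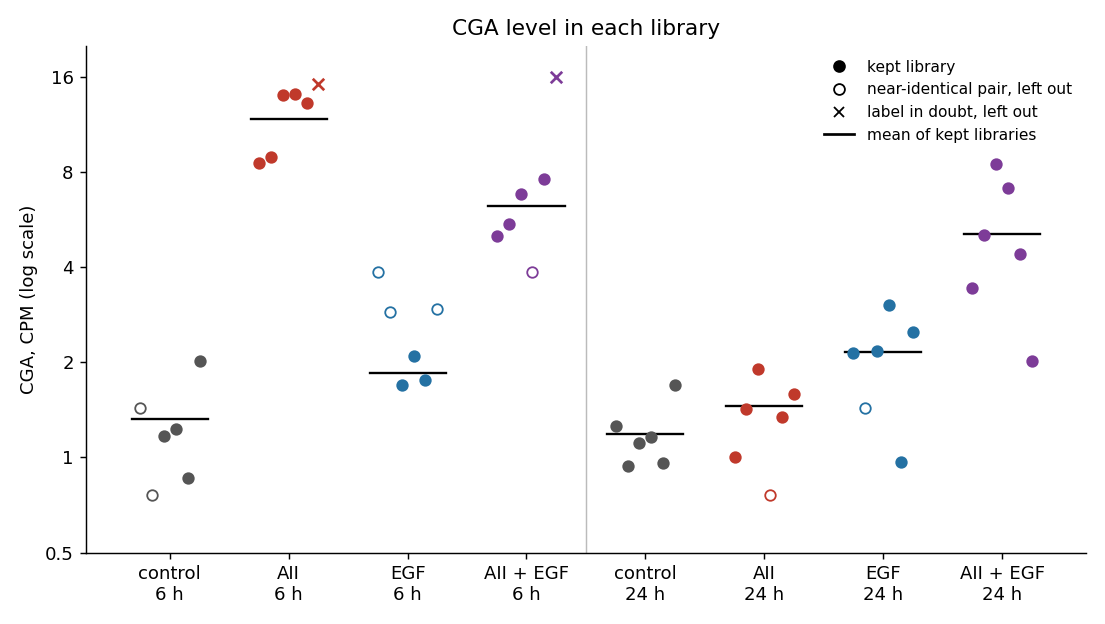
CGA in CPM (log scale) in each library of the 8 groups; filled points are the 38 libraries used, open circles the 8 of the near-identical pairs, crosses the 2 with labels in doubt, and bars the means of the libraries used. The 5 AII 6 h libraries sit between 8.52 and 14.1 CPM, whereas the 5 AII 24 h libraries sit between 1.00 and 1.90 CPM, and AII + EGF is raised at both times.

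The response to AII at 6 h was a log2 change of 3.13 ± 0.31 (SE of the fit), an 8.78-fold higher level than in control, and with all 48 libraries it was 3.30. This placed CGA at rank 7 of 19626 genes by size of the rise. A gene was called changed where its p by the quasi-likelihood test of edgeR, adjusted after Benjamini-Hochberg, was under 0.01, the groups differed at least 1.5-fold and the mean of the higher group exceeded 5 CPM. By this rule 0.469% of genes were called under AII at 6 h, nearly all of them higher (90 of 92). As CGA was chosen in this comparison, its rank follows in part from that choice, and no call is given for it. The response to EGF at 6 h was a log2 change of 0.47 ± 0.36, 1.38-fold, and the EGF and control libraries overlapped. Of all genes, 1.94% were called under EGF at 6 h, so that more genes were called under EGF than under AII at this time while CGA stood near its control level. With all 48 libraries the EGF change was 1.03, and the 3 left-out libraries with an EGF 6 h label held 3.84, 2.89 and 2.95 CPM, each above the 3 that were kept.

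Set directly against each other at 6 h, AII gave 6.35-fold the CGA level of EGF (log2 difference 2.67 ± 0.33, without overlap; 2.27 with all 48 libraries). The share of genes called under AII + EGF at 6 h was 12%. CGA was 4.65-fold its control level there (log2 change 2.22 ± 0.32), which is less than under AII alone: adding EGF to AII went with a 1.89-fold lower level (log2 difference -0.92 ± 0.27), with no overlap between the AII and AII + EGF libraries. The 2 libraries with labels in doubt bear on this comparison. They held 15.1 CPM (labelled AII) and 15.96 CPM (labelled AII + EGF), both above all 9 other libraries of these groups, and with all 48 libraries as labelled the difference was -0.73 and the groups overlapped. An exchange of these 2 labels would leave an overlap too, as both libraries exceed every AII library used.

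The comparison of AII + EGF with EGF at 6 h used none of the AII or control libraries through which CGA was chosen, and it was tested. As CGA was chosen with earlier results of these data known, the p-values of this and the other tested comparisons may not be free of that choice. AII in the presence of EGF went with a 3.36-fold higher CGA level than EGF alone (log2 change 1.75 ± 0.34, edgeR quasi-likelihood test, Benjamini-Hochberg adjusted p 0.000407), and all 4 AII + EGF libraries lay above all 3 EGF libraries. With all 48 libraries the change was 1.54 (adjusted p 0.0029). The exact two-sided permutation test of the log2 CPM values gave p = 0.0571, the smallest value that 4 against 3 libraries allow (0.08 after Benjamini-Hochberg adjustment over the 7 tested comparisons of CGA). In this comparison 2.92% of genes (574) were called, against 64 genes with all 48 libraries and 33 with the 2 doubtful libraries added, and CGA was at rank 28 among the called genes that were higher.

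At 24 h the pattern differed: CGA was near control under AII, somewhat above it under EGF and highest under both. The control libraries held 0.939 to 1.69 CPM with a median of 1.14 (1.19 ± 0.276, n = 6). The AII libraries held 1.00, 1.43, 1.90, 1.34 and 1.58 CPM (1.45 ± 0.329, n = 5) and overlapped the controls. The EGF libraries held 2.13, 2.17, 3.03, 0.968 and 2.49 CPM (2.16 ± 0.755, n = 5), so that 4 of 5 were above every control and 1 was at the level of the lowest controls. The AII + EGF libraries held from 2.01 to 8.46 CPM with a median of 4.72 (5.08 ± 2.38, n = 6). All 6 lay above every control and every AII library, but their range met that of EGF, and their coefficient of variation of 46.8% was the highest of the 8 groups.

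Of the 3 responses at 24 h, the test called the one to both stimuli. AII + EGF raised CGA 4.21-fold over control (log2 change 2.07 ± 0.26, edgeR quasi-likelihood test, Benjamini-Hochberg adjusted p 4.83e-07), where 2.9% of genes were called, and CGA was at rank 9 among the called genes that were higher. The log2 change under EGF was 0.86 ± 0.28, which was not called (adjusted p 0.108), and 0.245% of genes were. Under AII the log2 change was 0.28 ± 0.29 (adjusted p 1.00), and the share of genes called was 0%: edgeR and DESeq2 called 0 genes, and 343 genes had an unadjusted p under 0.05 in edgeR. Without AII + EGF replicate 3 or replicate 4 the change under both stimuli was 1.87 or 1.95 (adjusted p 3.15e-06 and 2.98e-06), but the group mean was then 4.39 or 4.67 CPM, under the minimum of 5 CPM, and CGA was not called.

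Between stimuli at 24 h, AII + EGF exceeded AII 3.46-fold (log2 difference 1.79 ± 0.27, adjusted p 3.89e-05 by the same edgeR test with Benjamini-Hochberg adjustment; no overlap), in a comparison that called 1.45% of genes. Leaving out AII + EGF replicate 3 or 4 gave 1.58 and 1.67 (adjusted p 0.000234 and 0.000192), again under the CPM minimum and so not called. AII + EGF against EGF gave a log2 difference of 1.22 ± 0.26 that was not called at this threshold (adjusted p 0.0155 by edgeR). It was not called either in 17 of 23 alternatives, and adjusted p over the alternatives reached 0.202. All 48 libraries gave 1.33 (adjusted p 0.0349 by edgeR). With title runs as a block (1.22, adjusted p 0.000364) and in DESeq2 (1.24, adjusted p 0.00139) it was called. The 38-library fit had 0.0917% of genes called. Without AII + EGF replicate 6, the lowest of its group at 2.01 CPM, the log2 difference was 1.39 and called (adjusted p 0.000816). AII against EGF gave -0.58 ± 0.29 (adjusted p 0.586), where 0.0255% of genes were called, so that the responses to AII and to EGF were not shown to differ at 24 h, whereas at 6 h the AII libraries were far above the EGF libraries.

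Exact two-sided permutation tests of the log2 CPM values at 24 h gave p = 0.00216 for AII + EGF against control and p = 0.00433 for AII + EGF against AII, each the smallest its group sizes allow (both 0.0152 after the same adjustment). For EGF against control the exact permutation p was 0.0303 and for AII + EGF against EGF it was 0.026, both 0.0530 after adjustment. AII against control (exact permutation p = 0.169) and AII against EGF (0.159) did not pass (both 0.169 after adjustment).

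**Figure D2:**
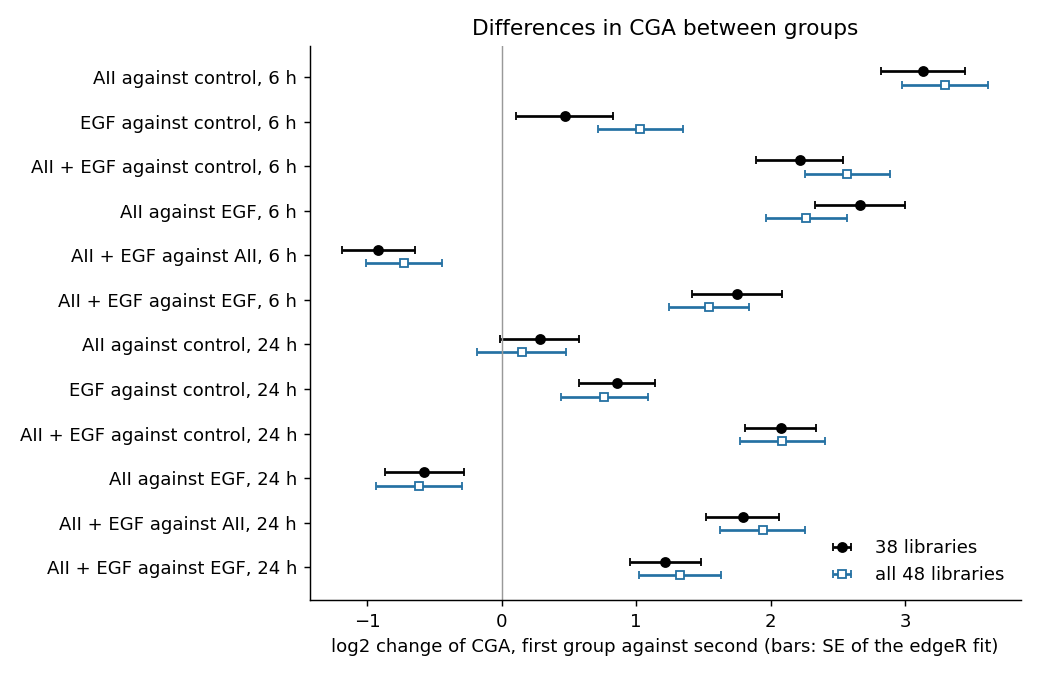
Log2 change of CGA in 12 comparisons, first group against second; points are the edgeR estimates from 38 libraries (filled) and from all 48 as labelled (open), and bars are 1 SE. AII against control falls from 3.13 at 6 h to 0.28 at 24 h, whereas AII + EGF against control is 2.22 and 2.07.

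The responses to AII therefore stood apart in time. The log2 response to AII was lower at 24 h than at 6 h by 2.85 ± 0.43 (coded as 24 h minus 6 h, -2.85), while the controls of both times were close (log2 difference -0.16 ± 0.32). These values use the libraries through which CGA was chosen and carry no test. In order of their means, the 8 groups were AII 6 h (11.7 CPM), AII + EGF 6 h (6.22), AII + EGF 24 h (5.08), EGF 24 h (2.16), EGF 6 h (1.85), AII 24 h (1.45), control 6 h (1.32) and control 24 h (1.19). Of neighbours in this order, only AII 6 h and AII + EGF 6 h did not overlap.

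The combined response was below the sum of the separate responses at 6 h and above it at 24 h. At 6 h the rise over control was 10.4 CPM under AII, 0.526 CPM under EGF and 4.90 CPM under both, 6.05 ± 1.41 CPM (SE) less than the sum, an excess of -6.05 CPM. At 24 h the rises were 0.265, 0.972 and 3.89 CPM, an excess of 2.65 ± 1.04 CPM over the sum. On the log2 scale the interaction of both stimuli was -1.38 ± 0.45 at 6 h and 0.93 ± 0.39 at 24 h (-1.76 and 1.18 with all 48 libraries). Both were computed after the levels had been seen and are descriptions.

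Within runs of sample titles the ratios kept these directions at 6 h and varied more at 24 h. A run is a stretch of consecutive titles that passes once through the 4 treatments; it is not a stated batch. In the 2 runs with all 4 treatments at 6 h, AII over control was 11.7 and 15.3, EGF over control 1.57 and 2.04, and AII over EGF 7.43 and 7.49. AII + EGF over EGF was 3.60 and 4.32 there. AII + EGF over AII was 0.601, 0.484 and 0.577 in the 3 runs that held both, below 1 in each. In the 4 runs at 24 h, AII + EGF over control was 3.86, 6.86, 4.57 and 1.19, so that the last run, with 1 library per group, showed little rise. AII + EGF over AII was 3.48, 4.10, 3.27 and 1.27 in these runs, and AII + EGF over EGF 1.99, 3.0, 4.54 and 0.807. EGF over control was 1.94, 2.29, 1.01 and 1.47, and AII over control 1.11, 1.68, 1.40 and 0.935.

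**Figure D3:**
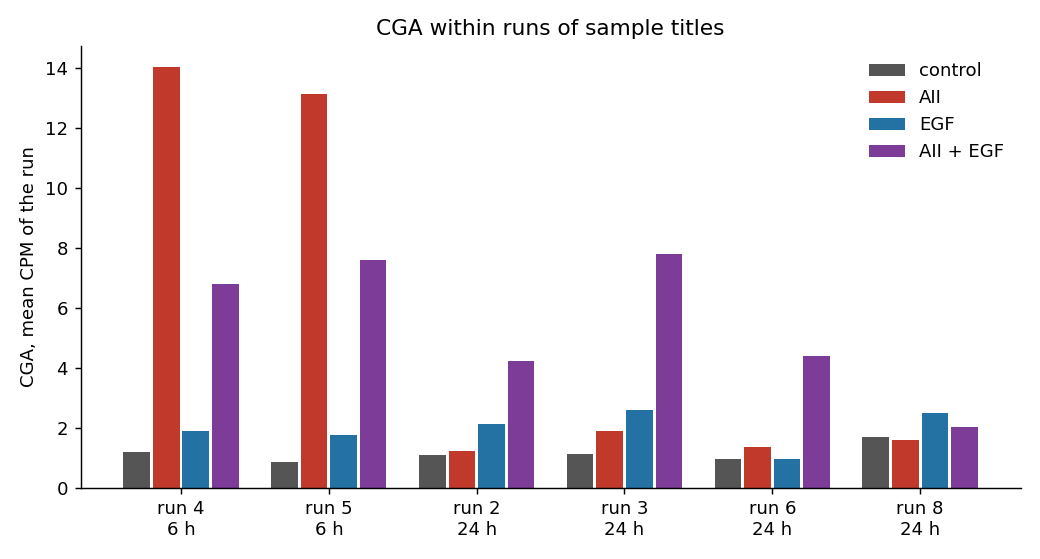
Mean CPM of CGA for each treatment (bars from 0; no error bars, as a run holds 1 or 2 libraries per treatment) in the 6 runs of sample titles that hold all 4 treatments, with 6 h runs at the left. AII is the highest bar in both 6 h runs, and AII + EGF is the highest bar in 3 of the 4 runs at 24 h.

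The partners of the alpha subunit were hardly detected. Of the 11 other hormone subunit genes listed, 3 had enough counts to be tested (CGB7 and LHB, which encode beta subunits of chorionic gonadotropin and luteinising hormone, and GPHA2, the alpha subunit of thyrostimulin), and 0 of 3 were called in any of the 6 responses, by edgeR and by DESeq2 alike; 1 had an unadjusted p under 0.05 in edgeR, in the response to EGF at 24 h. None of the 3 could be called whatever its change, as their group means were at most 0.841 CPM (GPHA2), under the minimum of 5 CPM. Apart from that minimum, their smallest edgeR adjusted p in the 6 responses was 0.174 (LHB, EGF at 24 h). Their largest count in a library was 16 for CGB7, 32 for LHB and 40 for GPHA2, against 329 for CGA. FSHB, the beta subunit of follicle-stimulating hormone, reached 2 counts, TSHB, that of thyrotropin, reached 4, and the other CGB genes reached 3 to 14. CGB and LHB are near-identical copies in a cluster, and how reads that map to several places were counted is not stated, so their counts are uncertain. The hormone receptors were as low: LHCGR reached 2 counts and FSHR 1, while TSHR, the receptor of thyrotropin, reached 16 and was tested. TSHR could not be called either, with group means of at most 0.518 CPM, and its smallest edgeR adjusted p in the 6 responses was 0.112.

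Transcription factors known to act on the alpha subunit promoter were counted next. Of 18 listed (CREB and ATF factors, JUN and FOS, GATA, AP-2, LIM and PITX factors among them), 17 were tested, and 0 were called under AII at 6 h by edgeR or DESeq2, where 0.469% of all genes were called; an unadjusted p under 0.05 was found for 3 of 17, beside 2367 of 19626 over all genes in edgeR, with a median log2 change of -0.02, beside -0.01 over all genes. FOS, a subunit of AP-1, rose under EGF at 6 h (log2 change 1.78 ± 0.43, adjusted p 0.0061 by edgeR with Benjamini-Hochberg adjustment). Under AII + EGF at 6 h, where 12% of all genes were called, 3 of 17 members rose (2 with all 48 libraries): FOS (log2 change 2.60), CREM, a cAMP-responsive modulator (0.72), and TFAP2A, an AP-2 factor that binds the placental enhancer region of CGA (0.70). The mean level of FOS at 6 h was 13 CPM under AII + EGF, 7.34 under EGF, 3.38 under AII and 2.13 in control. A link of these levels to that of CGA was not tested. At 24 h 0 of 17 were called in any of the 3 responses by either tool. Of all genes, edgeR called 0% (AII), 0.245% (EGF) and 2.9% (AII + EGF) there. An unadjusted p under 0.05 was found in edgeR for 1 (AII), 4 (EGF) and 8 (AII + EGF) of the 17. Under AII + EGF at 24 h JUN (log2 change 0.42, edgeR adjusted p 0.000491) and ATF3 (0.48, edgeR adjusted p 0.00929) passed the p limit but not the 1.5-fold limit. With all 48 libraries FOS was not called under EGF.

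Among genes known as targets of cAMP and CREB, most calls were made under both stimuli, as over all genes. Of 20 listed, 16 were tested; at 6 h, 1 was called under AII, 1 under EGF and 7 under AII + EGF, all higher, where 0.469%, 1.94% and 12% of all genes were called, with median log2 changes of 0.31, 0.41 and 1.46, beside -0.01, -0.01 and -0.03 over all genes. NR4A1, an immediate-early nuclear receptor, was the member called under AII (log2 change 0.72 ± 0.13, adjusted p 0.000605 by edgeR with Benjamini-Hochberg adjustment). JUNB, an AP-1 subunit, was the one called under EGF (0.95 ± 0.17, adjusted p 0.000149 by the same edgeR test). NR4A1 was at 9.19 CPM in control, 15.2 under AII, 12.2 under EGF and 30.6 under AII + EGF. The median change of the list, and the level of NR4A1, were thus highest under both stimuli, where CGA lay between AII and control. Under AII + EGF the 7 were JUNB (2.30), NR4A1 (1.73), its relatives NR4A2 (0.98) and NR4A3 (2.01), the gluconeogenic enzyme gene PCK1 (2.09), the neuropeptide precursor VGF (3.56) and TAC1, the precursor of substance P (4.79). Other members passed the p and fold limits at 6 h but stayed under 5 CPM. These were TAC1 (1.96) and NR4A3 (0.88) under AII, TAC1 (2.23) under EGF, and FOSB (1.16), AREG (3.89) and INHBA (3.61) under AII + EGF. At 24 h 0 were called under AII or EGF by edgeR and DESeq2 (unadjusted p under 0.05 for 1 and 3 in edgeR), and under AII + EGF the clock gene PER1 was called (0.68). VGF (1.90) and TAC1 (1.86) passed the p and fold limits there but stayed under 5 CPM. Under AII + EGF at 6 h PER1 (0.02), IRS2, an insulin receptor substrate (-0.09), and PDE4D, a cAMP phosphodiesterase (0.31), were not called. With all 48 libraries 0 were called under AII at 6 h and 6 under AII + EGF. The order of stimuli was not tested against that of CGA.

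Of 14 coactivators of CREB and subunits and inhibitors of protein kinase A, all tested, 0 were called under AII at either time by edgeR or DESeq2, where 0.469% and 0% of all genes were called. In edgeR an unadjusted p under 0.05 was found for 3 of 14 at 6 h and 1 of 14 at 24 h, beside 2367 and 343 of 19626 over all genes. PRKAR1B, a regulatory subunit of the kinase, rose at 6 h (log2 change 0.70 with EGF, 1.01 with both stimuli) and fell at 24 h (-0.65 with EGF, -0.72 with both), and with all 48 libraries the fall under EGF was not called. PKIA, an inhibitor of the kinase, fell under AII + EGF at 6 h (-1.29) and at 24 h (-0.90). Its changes at 6 h and 24 h were -0.44 and -0.41 under EGF and -0.32 and -0.20 under AII, none of them called. Under AII + EGF 2 of the 14 were called at 6 h and 2 at 24 h, where 12% and 2.9% of all genes were. A link of these genes to the level of CGA was not tested. The median log2 change of the 14 genes under AII at 6 h was 0.08.

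The other genes with the consensus element in the same window were counted too. Of the 378 tested genes with at least 1 copy of TGACGTCA, CGA left out, 5 were called under AII at 6 h (1.32%, beside 0.469% of all genes), 8 under EGF (2.12%, beside 1.94%) and 53 under AII + EGF (14%, beside 12%), with a median log2 change of -0.03 under AII. At 24 h, edgeR called 0 under AII, 0 under EGF and 12 under AII + EGF (3.17%, beside 2.9%), and 4 and 63 of the 378 had an unadjusted p under 0.05 with AII and EGF. Of the 13 tested genes with 2 copies or more, 1 was called in any of the 6 responses: DDX10, an RNA helicase gene, which rose under AII + EGF at 6 h (log2 change 0.75). This gene was singled out after its values were seen. Under AII at 6 h the 13 had a median log2 change of 0.01.

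Genes most alike to CGA over the libraries were sought among 15154 genes with a mean above 1 CPM, by Pearson's r of log2 CPM over the 38 libraries. The 6 highest were PDIA4 (r = 0.868), SLC6A9 (0.856), PSAT1 (0.852), HSPA5 (0.826), EIF4EBP1 (0.793) and LBH (0.790), against 0.590 at the 99th percentile and a median of 0.0114; Spearman's rho of the 6 was 0.703 to 0.820. The 38 points share depth, title runs and the 8 groups, so r is a description. PDIA4 and HSPA5 are chaperones of the endoplasmic reticulum, PSAT1 an enzyme of serine synthesis, SLC6A9 a glycine transporter, EIF4EBP1 a repressor of translation initiation and LBH a transcription cofactor of development. All 6 were called higher under AII at 6 h, as their choice favours, with log2 changes from 0.88 (EIF4EBP1) to 3.28 (LBH). Under EGF at 6 h LBH was called (1.93), and the other 5 were between 0.06 (PDIA4) and 0.55 (SLC6A9) and not called. Under AII at 24 h 0 of the 6 were called, with changes from -0.09 (HSPA5) to 0.29 (SLC6A9).

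These genes parted from CGA in 2 places. Under AII + EGF at 6 h LBH (4.22) and HSPA5 (1.34) had larger changes than under AII (3.28 and 1.12), whereas the change of CGA was smaller under both stimuli than under AII; the other 4 had smaller changes too, for example SLC6A9 with 2.19 and 2.54. At 24 h the log2 change of CGA under AII + EGF, 2.07, was larger than that of any of the 6, which ran from 0.19 (PDIA4) to 1.24 (LBH). PSAT1 and SLC6A9 had larger changes under EGF at 24 h (0.65 and 0.83) than under AII + EGF (0.49 and 0.74), unlike CGA (0.86 and 2.07). The differences between genes were not tested.

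**Figure D4:**
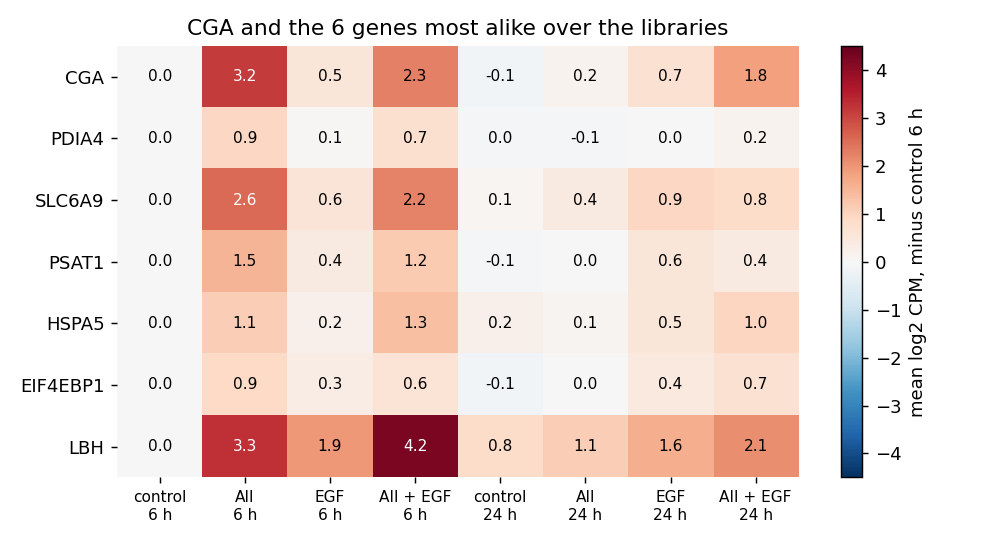
Mean log2 CPM in each of the 8 groups, minus that of control 6 h, for CGA and the 6 genes with the highest r to it over 38 libraries; red is higher and blue lower than control 6 h. For all 7 genes AII 6 h is well above AII 24 h, and CGA has a value under AII + EGF at 24 h close to the one at 6 h.

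The nearest tested genes on chromosome 6 did not follow CGA. SYNCRIP, SNHG5 and ZNF292 were not called in any of the 6 responses. GJB7, a connexin gene, was lower under EGF (log2 change -1.14 at 6 h and -0.89 at 24 h) and AII + EGF (-1.73 and -1.67), and its change under AII at 6 h was -0.22, which was not called.

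Summed markers of trophoblast and of the anterior pituitary overlapped between AII and control at 6 h. The summed level of 14 trophoblast markers was 9.31 to 13.9 CPM in control and 10.8 to 12.4 CPM under AII at 6 h, and 8.62 to 20.9 CPM over all 38 libraries; 3 of the 14 were tested and edgeR called 0, with 1 at an unadjusted p under 0.05 for AII at 6 h. Most of this sum came from PAPPA and PSG4, while GCM1, which drives trophoblast fusion, reached 6 counts in a library and CSH1, placental lactogen, reached 1. PSG4 was lower under AII + EGF at 6 h (log2 change -0.89, adjusted p 0.000124 by edgeR) but not called, as its means were under 5 CPM. The 9 pituitary markers summed to 2.07 to 3.02 CPM in control and 2.00 to 2.90 CPM under AII at 6 h, and to 2.60 to 6.52 CPM over the libraries at 24 h. Most of this sum came from TBX19, a corticotrope factor, with a mean of 1.82 CPM in control and 1.62 CPM under AII at 6 h. Both tested members had an unadjusted p under 0.05 in edgeR under AII + EGF at 24 h and were not called. TBX19 had a log2 change of 0.64 (edgeR, Benjamini-Hochberg adjusted p 0.015) and GNRHR, the receptor of gonadotropin-releasing hormone, one of -2.28 (0.0024) at a mean under 1 CPM. PRL, prolactin, reached 2 counts, GH1, growth hormone, 1 and POU1F1, the pituitary lineage factor, 3. The 7 genes listed for HEK293 (VIM, KRT8, KRT18, NEFL, NEFM, CDH2 and PAX2) were all tested and summed to 3303 to 10838 CPM. Most of this sum came from NEFM, with group means of 3114 to 8592 CPM, whereas those of PAX2 were 0.505 to 2.96 CPM. Of the 7 genes, KRT18 (log2 change 0.97) and NEFM (1.32) were called higher under AII + EGF at 6 h, where 12% of all genes were called. NEFM (0.76) was also called at 24 h, where 2.9% were, and with all 48 libraries the call at 24 h was lost.

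The receptors of both stimuli were present in every group, and their levels are given here without a test. AGTR1, whose counts can come from the plasmid and from the gene of the cells, was at 6 h at 4271 ± 239 CPM in control, 5971 ± 208 with AII, 5195 ± 229 with EGF and 10041 ± 436 with both (SD). At 24 h it was 7363, 7614, 9305 and 13066 CPM in the same order. EGFR was at 19.2, 26.5, 32.3 and 46.9 CPM at 6 h and at 29.8, 29.03, 33.4 and 28.6 CPM at 24 h. The mean of AGTR1 was highest under AII + EGF at both times, and CGA was highest under AII at 6 h; the part of receptor levels in the CGA values was not tested.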

How the data were processed

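CGA and all gene lists were chosen with earlier results of these data known. Per the submitters' processing notes and the study's methods, the authors aligned reads to hg38 with HISAT2 2.1.0, counted fragments per Ensembl gene with featureCounts and deposited 1 table of raw counts without normalisation; strandedness and the handling of reads with several positions are not given in the sources used here. The table held 0 columns of other samples. Groups came from the sample labels, which give no replicate numbers, so numbers follow deposition order.

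Of 60610 genes, 43320 had a count in the 38 libraries used. The counts went into edgeR (version 4.0.16, R 4.3.3) with filterByExpr by group (19626 genes), TMM factors and 1 quasi-likelihood fit over the 8 groups, without covariates and with Benjamini-Hochberg adjustment over all tested genes. Calls needed an adjusted p under 0.01, a difference of 1.5-fold or more and over 5 CPM on average in the higher group. CGA was also tested by exact two-sided permutation of log2 CPM values, for the 7 comparisons that hold no AII or control library of 6 h. For likeness, log2 CPM used a prior count of 0.5. The fit was tested on simulated data. Promoters and positions are from RefSeq on GRCh38.p14. The named genes were CGA, its nearest tested neighbours, list members and the 6 genes of highest Pearson's r to CGA.

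Alternatives were all 48 libraries, adding back the 2 doubtful or the 8 paired libraries, DESeq2 1.42.0, RLE factors, library totals, no filter, the filter of the study (1 normalised count or more in over 5 libraries), only the groups compared, title runs as a block, an adjusted p under 0.05, no abundance minimum and leaving out each library. CGA rested on 16 to 55 counts per library in the control and EGF groups at 6 h.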

Additional observations from a re-analysis of the deposited data

Results flagged for a closer look

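Adding EGF to AII went with opposite differences in CGA at the 2 times in the 38 libraries used: every AII + EGF library lay below every AII library at 6 h (log2 difference -0.92) and above every AII library at 24 h (1.79). With all 48 libraries as labelled, the groups overlapped at 6 h. The difference between the times was not tested.

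Of the 10 libraries outside the comparisons, 6 held CGA above the highest control library of all 48 (2.02 CPM). Those with labels in doubt were at 15.1 CPM (labelled AII 6 h replicate 6) and 15.96 CPM (labelled AII + EGF 6 h replicate 6). Of the near-identical libraries, those labelled EGF 6 h were at 3.84 CPM (replicate 1), 2.89 CPM (replicate 2) and 2.95 CPM (replicate 6), and the one labelled AII + EGF 6 h replicate 4 was at 3.85 CPM. No library stood apart within its group by Dixon's criterion in the 7 groups of 4 to 6 libraries.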

How the results depend on the processing

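Over 15 CGA results and 315 alternatives, 299 were counted as the same. For the 7 tested comparisons this meant the same direction and side of the threshold, and 0 of their alternatives reversed. For the untested results it meant a shift under the pooled SD within groups (0.479 on the log2 scale), whatever the direction. The log2 difference between the controls of both times, -0.16, became 0.135 without control 6 h replicate 6. AII against EGF at 6 h and the difference of their responses are the same contrast. AII + EGF against EGF at 6 h was called in all 19 of its alternatives (1.15 to 2.15, adjusted p 1.64e-06 to 0.00551). AII + EGF against EGF at 24 h (1.22) stayed uncalled in 17 of its 23 alternatives, and adjusted p over the alternatives reached 0.202 by edgeR. It passed at an adjusted p under 0.05 (1.22), with the near-identical pairs (1.31), in DESeq2 (1.24), without a filter (1.23), with title runs as a block (1.22, adjusted p 0.000364) and without AII + EGF replicate 6 (1.39). For it, leaving out libraries gave 1.01 to 1.39. Leaving out libraries gave 1.87 to 2.24 for AII + EGF against control and 1.58 to 1.96 for AII + EGF against AII at 24 h; the calls were lost without replicate 3 or 4 of AII + EGF through the abundance minimum. EGF against control at 6 h was 1.03 with all 48 libraries and 1.05 with the pairs, AII against EGF at 6 h (and the difference of their responses) 2.18 with the pairs, and the block gave 3.62 for AII and 2.78 for AII + EGF against control at 6 h. Other causes were not tested.

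The number of genes called over alternatives was 62 to 127 for AII, 121 to 620 for EGF and 1604 to 3247 for AII + EGF at 6 h. Against control at 24 h it was 0 for AII, 2 to 137 for EGF and 344 to 1113 for AII + EGF. For AII + EGF against EGF at 6 h it was 33 (with the 2 doubtful libraries) to 743. At 24 h it was 0 to 34 for AII against EGF, 1 to 73 for AII + EGF against EGF and 134 to 539 for AII + EGF against AII. No paired analysis was possible because the labels give no replicate numbers; title runs were the block that could be fitted. Runs lie within 1 time, so the block could not be fitted to the controls of both times. CGA rested on 16 to 71 counts per library outside the AII 6 h and AII + EGF groups.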
